A study of Mus musculus with 4 samples.

Results

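The genes described here make cholesterol and fatty acids and are controlled by the sterol regulatory element-binding proteins (SREBPs). They were taken by symbol, 30 genes in all, from the 51912 genes of the deposited table, and each symbol matched 1 row. By role they fall into 5 regulators of SREBP activity, 1 sterol transport gene, 8 enzymes of the mevalonate and isoprenoid steps, 11 enzymes that turn farnesyl units into sterols, and 5 enzymes of fatty acid synthesis and desaturation. All 30 passed the filter on low counts.

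RNA was sequenced from pancreatic β cells of mouse neonates at postnatal day 13, sorted by flow cytometry for a nuclear red fluorescent reporter (H2B-mCherry at Rosa26). All 4 libraries carried 1 copy of that reporter and 1 copy of Ucn3-Cre, a recombinase made in maturing β cells, which switches the reporter on. The 2 control libraries had wild-type Robo1 and Robo2. The 2 Robo mutant libraries were Robo1delta/delta and Robo2flx/flx, so Robo1 was deleted without need of the Cre while the loss of Robo2 depended on it. The series title asks whether these receptors are needed in β cells for endocrine cells to take their places in the mature islet. The labels do not say whether libraries of a genotype came from different animals, so the p-values reflect only how these libraries vary, and that variation may be technical.

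SREBPs are made as precursors in the endoplasmic reticulum membrane. When sterols are plentiful, Insig proteins hold the precursor and its escort Scap there. When sterols run low, Scap carries the precursor to the Golgi, proteases release its active part, and that part enters the nucleus and binds sterol regulatory elements beside the genes of the pathway, usually together with the factors NF-Y and Sp1. SREBP-2, from Srebf2, acts mainly on cholesterol synthesis, and SREBP-1, from Srebf1, mainly on fatty acid synthesis. Activity is therefore set largely by processing of the protein, which transcript levels do not show. In β cells, cholesterol is a component of insulin granules and of the plasma membrane where they fuse.

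Promoters are shown because these genes share a regulator. RefSeq windows on GRCm38.p6 were matched for 24 of the 30 members (32 windows), and the 250 bases before each start were searched on both strands. No window was used for Sqle, Fdft1, Fdps, Stard4, Scd1 and Scd2, so the shares below do not cover them. Some members have windows for several starts, and some windows, such as that of Acaca, lie wholly inside the annotated gene. The letters of the sterol regulatory element searched were TCACNCCAC. They were found in 1 of the 32 windows (3.12%), that of Hmgcs1, and in 1.05% of all 32851 windows. The NF-Y letters CCAAT stood in 65.6% of the members' windows, against 33.8% of all windows and 34.9% of the 14533 windows of genes tested below. For the Sp1 letters GGGCGG the shares were 68.8%, 32.7% and 55.3%, and for the E-box CACGTG 15.6%, 6.02% and 7.84%. These are matches of letters and not measured binding.

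The windows below belong to 3 members whose mutant libraries both lay above both controls (Hmgcs1, Mvk and Fasn) and to Insig2, whose mutant libraries both lay below. They are examples and do not stand for their groups. Of the others above with a window, Msmo1 held 3 NF-Y matches, Idi1 2, Cyp51 and Sc5d 1 each, and Elovl6 0. Pmvk held 1 in 1 of its windows and 0 in the other. Of the others below, Nsdhl held 2, Srebf2 1 and Scap 0. Capitals mark the sterol regulatory element letters and the NF-Y letters on either strand, and each sequence reads 5′ to 3′ towards the gene. The positions are chr13:119690101-119690350 (plus strand) for Hmgcs1, chr5:114444019-114444268 (plus) for Mvk, chr11:120824548-120824797 (minus) for Fasn and chr1:121332590-121332839 (minus) for Insig2.
Hmgcs1: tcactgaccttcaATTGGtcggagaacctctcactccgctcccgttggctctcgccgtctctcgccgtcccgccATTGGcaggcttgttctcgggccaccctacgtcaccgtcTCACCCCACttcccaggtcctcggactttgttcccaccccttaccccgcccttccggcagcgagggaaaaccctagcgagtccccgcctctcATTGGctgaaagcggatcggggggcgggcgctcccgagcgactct
Mvk: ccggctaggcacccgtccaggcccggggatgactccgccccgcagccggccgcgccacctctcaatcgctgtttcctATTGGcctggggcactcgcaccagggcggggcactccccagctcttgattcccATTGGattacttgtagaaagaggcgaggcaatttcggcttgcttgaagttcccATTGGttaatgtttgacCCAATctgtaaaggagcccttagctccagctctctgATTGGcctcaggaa
Fasn: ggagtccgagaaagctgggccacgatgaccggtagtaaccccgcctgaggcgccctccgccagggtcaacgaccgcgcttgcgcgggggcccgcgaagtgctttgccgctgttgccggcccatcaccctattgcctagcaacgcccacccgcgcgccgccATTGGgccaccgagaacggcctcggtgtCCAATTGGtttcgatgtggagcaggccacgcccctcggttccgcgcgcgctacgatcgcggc
Insig2: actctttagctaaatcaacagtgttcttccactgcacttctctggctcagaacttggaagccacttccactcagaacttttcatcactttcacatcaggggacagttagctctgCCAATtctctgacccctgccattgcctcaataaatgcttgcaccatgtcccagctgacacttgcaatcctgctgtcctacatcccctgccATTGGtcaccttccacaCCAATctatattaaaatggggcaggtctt
Hmgcs1 has the sterol regulatory element letters from position -137, counted from the start, and NF-Y letters from -237, -176 and -45. Mvk holds 5 NF-Y matches, the largest number among these windows. Fasn holds 3, of which those from -62 and -59 overlap, and Insig2 also holds 3. A link between matches and the direction of a difference was not tested. This Insig2 window is 1 of 3 matched for the gene, the farthest upstream, and the others held no NF-Y letters.

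The libraries held 38886129 to 49593712 counts. Genes with a count above 0 numbered 19919 and 20918 in control 1 and control 2. They numbered 17751 and 17937 in Robo mutant 1 and Robo mutant 2, fewer than in either control. This difference runs with genotype, and its part in the comparison was not tested. Every member other than Scd1 had at least 165 counts in each library. Robo1 stood at 48.5 and 104 CPM (counts scaled to library size with TMM factors) in control 1 and control 2 and at 22.3 CPM or less in both Robo mutant libraries. Robo2 stood at 75.2 and 118 CPM in the controls and at 32.7 and 25.6 CPM in Robo mutant 1 and Robo mutant 2. The β-cell markers were present in every library, with a summed level of 160199 to 231264 CPM for 10 of 10 genes, Ins2 being the most abundant. Robo mutant 2 stood apart on the first principal component, which held 51.8% of the variance. Its 19 acinar markers summed to 61085 CPM, led by Cel, against 964 to 6413 CPM in the other libraries, and its 9 stromal markers, led by Col3a1, to 12.9 CPM against 703 to 2417 CPM. On the second component (31.3%), Robo mutant 1 lay at -43.2 and Robo mutant 2 at -15.0, against 30.5 and 27.8 in the controls. The mutant libraries correlated less with each other (r = 0.937, log2 CPM) than either did with a control (0.950 to 0.962). Summed markers of other types ranged over 12064 to 24355 CPM for alpha cells (Gcg) and 1159 to 2625 for delta cells (Sst). The delta sum was highest in Robo mutant 1, at 2625 CPM against 1159 to 1419 CPM in the other libraries. Most of it was Sst, at 2144 CPM in Robo mutant 1, and the list was not uniform. Hhex and Pdyn were also highest in Robo mutant 1. Rbp4 and Ghsr were highest in Robo mutant 2, and Sstr3 was lowest in Robo mutant 1. For PP and epsilon cells (Pyy) the range was 4340 to 7191 CPM. For duct (Krt7) it was 478 to 565 and for Schwann cells (Mbp) 118 to 169. The ranges were 5.88 to 18.7 CPM for endothelium (Esam), 15.1 to 100.3 for immune cells (Cd74) and 0.689 to 1.98 for adipocytes (Cidec), a cell type rich in fatty acid synthesis whose markers Adipoq, Plin1 and Lep were at 0 in all 4 libraries. Cftr of the duct list was also at 0 throughout. In sorted bulk samples, fewer cells of a type and less RNA per cell cannot be told apart.

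Enzyme transcripts of the sterol pathway were mostly higher in the Robo mutant libraries. Log2 changes of 4 of its 5 regulators were below 0 but small (-0.049 to -0.19), each with a 95% interval that included 0. Over the 30 members, 19 had a log2 change above 0 and 11 below, with a median of 0.12 (0.053 without Robo mutant 1 and 0.21 without Robo mutant 2). Among all 16517 genes tested, 48.7% lay above 0 and the median was -0.013. Of the 19 enzymes from Acat2 to Dhcr7 in pathway order, 15 were higher and 4 lower. Without Robo mutant 1, 4 of 8 were higher in the mevalonate and isoprenoid steps and 8 of 11 in the squalene and sterol steps. With libraries scaled by totals alone these were 5 of 8 and 8 of 11. Over all genes tested, 47.3% were higher without Robo mutant 1 and 42.3% by totals alone. No member passed the test: 0 had an adjusted p under 0.05 by edgeR's quasi-likelihood test, the smallest being 0.680, and 0 of all genes tested did (0%). At an unadjusted p under 0.05 in edgeR there were 2 members, Idi1 and Hmgcs1, both higher, against 1025 genes (6.21% of those tested, 1.99% on the higher side and 4.21% on the lower side). DESeq2 called 151 genes (0.914%) and 0 members, with smallest adjusted p of 0.0537 for Hmgcs1 and 0.0809 for Idi1. The mutated genes Robo1 (log2 change -1.82) and Robo2 (-1.73) also had an adjusted p of 0.680 in edgeR. In DESeq2 their adjusted p was 0.00186 and 1.99e-05. The lack of a call in edgeR therefore does not show that a gene was unchanged.

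Both mutant libraries lay above both controls in 10 members: Hmgcs1, Mvk, Pmvk, Idi1, Fdft1, Cyp51, Msmo1, Sc5d, Fasn and Elovl6. That held for 16.1% of all genes tested. By totals alone it held for 8 members (12.7% of all genes), and with RLE factors for 11 members (17.1%). Both lay below both controls in 4 members, Srebf2, Scap, Insig2 and Nsdhl, as in 20.4% of all genes tested. With RLE factors this held for 2 members (19.4% of all genes). The other 16 members overlapped between the genotypes. Since the members were chosen with earlier results of these data known, these counts are a description.

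**Figure D1:**
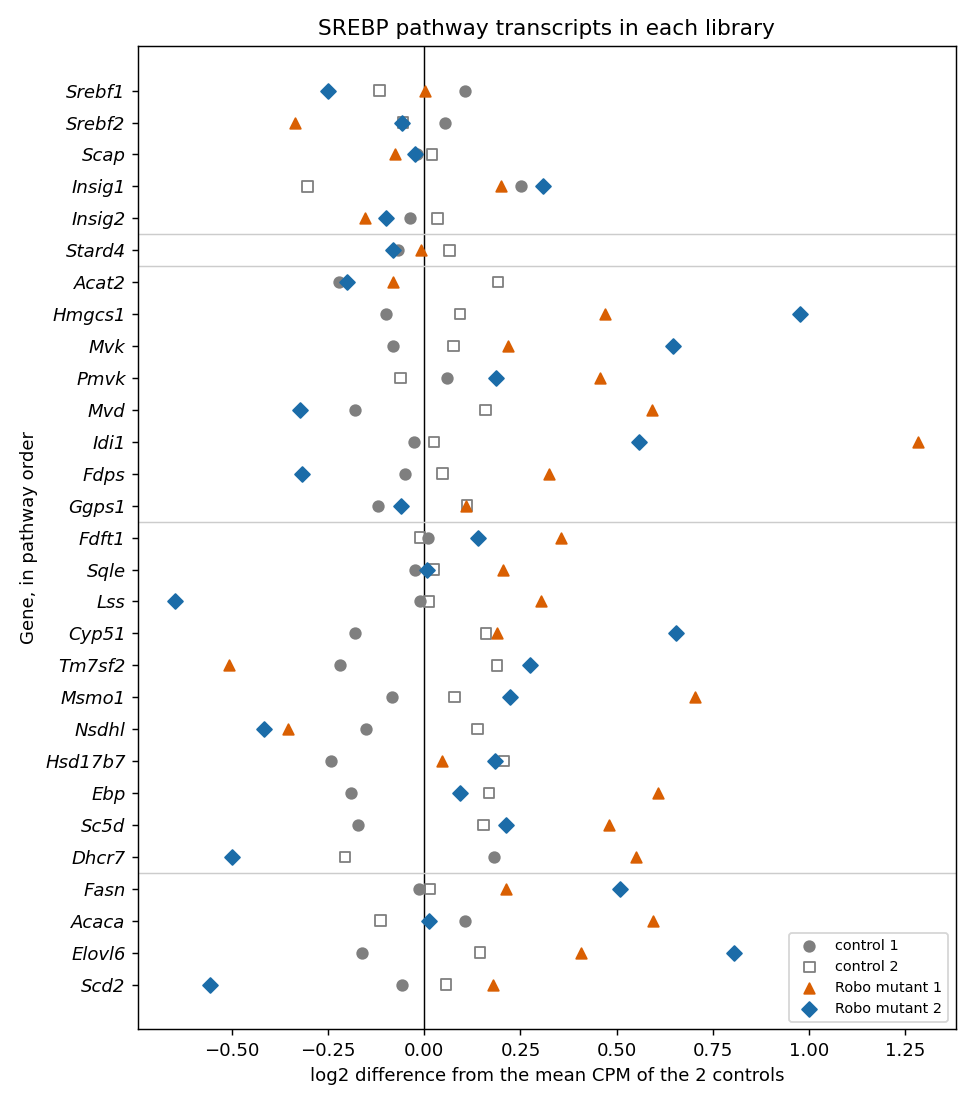
Log2 difference of each library from the mean CPM of the 2 controls (horizontal axis) for 29 members in pathway order (vertical axis), with grey marks for controls, triangles for Robo mutant 1 and diamonds for Robo mutant 2. Hmgcs1 and Idi1 have both mutant libraries to the right of both controls, whereas Lss, Mvd and Dhcr7 have the 2 mutant libraries on opposite sides. Scd1 is not drawn because it has 0 counts in control 2.

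Among the regulators, Srebf2 stood at 184 and 171 CPM in the controls and at 140 and 170 CPM in Robo mutant 1 and Robo mutant 2. Mutant 2 lay barely below control 2, and the log2 change was -0.19 (95% interval -0.60 to 0.21). Srebf1 stood at 168 and 144 CPM in the controls and at 156 and 131 CPM in the mutant libraries. These values overlapped, with a log2 change of -0.12 (-0.54 to 0.31). Per kilobase of exon the level of Srebf1 was 1.16 and 1.07 times that of Srebf2 in the controls and 1.42 and 0.980 times in the mutant libraries, so the 2 factor genes were at similar levels throughout.

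Insig1, itself a classic SREBP target as well as an inhibitor of the pathway, was the regulator with a log2 change above 0. It stood at 81.0 and 55.2 CPM in the controls and at 78.2 and 84.3 CPM in the mutant libraries. The low library was control 2, and control 1 lay between the mutants. Its log2 change was 0.25 (95% interval -0.34 to 0.85), but 0.0059 without control 2. Insig2, the second Insig gene, was at 76.1 and 80.0 CPM against 70.1 and 72.9 CPM, with a log2 change of -0.13 (-0.45 to 0.20). Per kilobase, Insig1 over Insig2 was 1.19 and 0.775 in the controls and at least 1.25 in both mutant libraries. Scap, the escort, varied least among the regulators, at 69.0, 70.9, 66.4 and 68.8 CPM (log2 change -0.049, interval -0.37 to 0.28). Stard4, a small carrier of cholesterol between membranes and a known SREBP-2 target, stood at 16.4, 18.0, 17.1 and 16.2 CPM in the same order, with a log2 change of -0.045 (-0.64 to 0.55) and overlapping genotypes.

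In the mevalonate and isoprenoid steps 7 of 8 transcripts were higher, with a median log2 change of 0.27. Without Robo mutant 1 this was 4 of 8 with a median of 0.064, and by totals alone 5 of 8 were higher. Their summed level was 357 and 398 CPM in the controls and 533 and 512 CPM in the mutant libraries, both above both controls. Most of that difference lay in Hmgcs1 and Idi1. Hmgcs1 (ENSMUSG00000093930, chromosome 13, 119690379 to 119708260, plus strand, GRCm38) encodes the cytosolic synthase that makes HMG-CoA. It stood at 127 and 144 CPM in the controls and at 188 and 267 CPM in mutant 1 and mutant 2. The genotypes did not overlap and mutant 2 was the higher. The means were 136 ± 12.7 and 227 ± 55.7 CPM (SD, n = 2 each), 1.68-fold higher in the mutant. The log2 change was 0.75 (SE 0.22), with an unadjusted p of 0.0215 in edgeR. Hmgcs1 shares 12.1% of its exon bases with the antisense gene Gm48342, for which no counts are available.

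Idi1 (ENSMUSG00000058258, chromosome 13, 8885501 to 8892451, plus strand, GRCm38) encodes the isomerase that interconverts the pathway's isoprene building blocks. It stood at 43.3 and 44.9 CPM in the controls and at 107 and 65.0 CPM in mutant 1 and mutant 2. Here mutant 1 was the higher, the reverse of Hmgcs1. The means were 44.1 ± 1.12 and 86.2 ± 30.1 CPM (SD, n = 2 each), 1.95-fold higher, with a log2 change of 0.97 (SE 0.27) and an unadjusted p of 0.0197 in edgeR. The log2 change was 1.29 without Robo mutant 2 and 0.56 without Robo mutant 1. A processed pseudogene, Gm13502, is identical to Idi1 over 684 bases but had 28 to 93 counts, against 1831 to 5376 for Idi1. Idi1 also shares 9.2% of its exon bases with Gm48574, which had 0 to 1 counts.

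The kinases that follow mevalonate were also higher in both mutant libraries. Mvk, mevalonate kinase, stood at 8.62 and 9.61 CPM in the controls and at 10.6 and 14.3 CPM in the mutants (log2 change 0.45, SE 0.31). Pmvk, phosphomevalonate kinase, stood at 18.2 and 16.7 against 24.0 and 19.9 CPM (0.33, SE 0.22). Neither difference passed the test. The decarboxylase gene Mvd was split, at 8.94 and 11.3 CPM in the controls, 15.3 in mutant 1 and 8.09 in mutant 2. Fdps, the farnesyl diphosphate synthase gene, was split the same way, at 91.2, 97.6, 118 and 75.7 CPM. Its log2 change of 0.039 turned to -0.012 when libraries were scaled by totals alone, and 26.7% of its exon bases are shared with the overlapping gene Gm43738. Ggps1, which makes the lipid anchor of small GTPases, had a log2 change of 0.026 (-0.033 by totals alone). Acat2, the cytosolic thiolase of the first step, had -0.14, and its value is uncertain because of its near copies. Acat3 (97.7% identity over 1477 bases) had 9 to 81 counts against 836 to 999 for Acat2, and Tcp1, which matches over 445 bases at 98.7% identity, had 6223 to 8718.

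In the squalene and sterol steps 8 of 11 transcripts were higher, with a median log2 change of 0.12, and 0 had an unadjusted p under 0.05 in edgeR. The median was 0.31 without Robo mutant 2, 0.24 without control 2, 0.20 without control 1 and 0.14 without Robo mutant 1. By totals alone it was 0.079. Both mutant libraries lay above both controls in 4 of them and below in 1, against 16.1% and 20.4% of all genes tested. By totals alone they lay above in 2, against 12.7% of all genes tested. The smallest p was that of Msmo1 (0.0696 unadjusted), the monooxygenase that removes methyl groups from sterols, at 104 and 116 CPM in the controls and 179 and 129 CPM in mutant 1 and mutant 2. Its log2 change was 0.48 (95% interval -0.059 to 1.03). Cyp51, the lanosterol demethylase gene, stood at 68.1 and 86.3 CPM in the controls and at 88.1 and 122 CPM in the mutant libraries, with mutant 1 close to control 2 (log2 change 0.44, interval -0.16 to 1.04). Fdft1, squalene synthase, stood at 98.4 and 97.0 against 125 and 108 CPM (0.25, interval -0.11 to 0.61). Of its exon bases 18.3% are shared with the abundant antisense neighbour Ctsb, and the libraries carry no strand information.

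Nsdhl, a sterol dehydrogenase gene on the X chromosome, differed in the other direction, at 21.3 and 26.0 CPM in the controls and 18.5 and 17.7 CPM in the mutant libraries (log2 change -0.39, interval -0.97 to 0.20). Sqle, squalene epoxidase and a rate-limiting enzyme of the pathway, stood at 242 and 250 CPM against 283 and 247 CPM, with mutant 2 between the controls. Lss, which closes the sterol rings, stood at 61.1 and 62.1 CPM in the controls, 76.1 in mutant 1 and 39.3 in mutant 2. The reductase gene Dhcr7, of the last steps, showed the same split, at 27.0, 20.6, 34.8 and 16.8 CPM. In Lss the controls were nearly equal, and the mutant libraries lay on either side of them. Ebp and Sc5d, an isomerase and a desaturase, had log2 changes of 0.37 and 0.35, and Hsd17b7, a reductase, 0.12. Tm7sf2, a sterol reductase at 3.30 to 5.67 CPM, had -0.064 with a wide interval (-1.47 to 1.34).

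**Figure D2:**
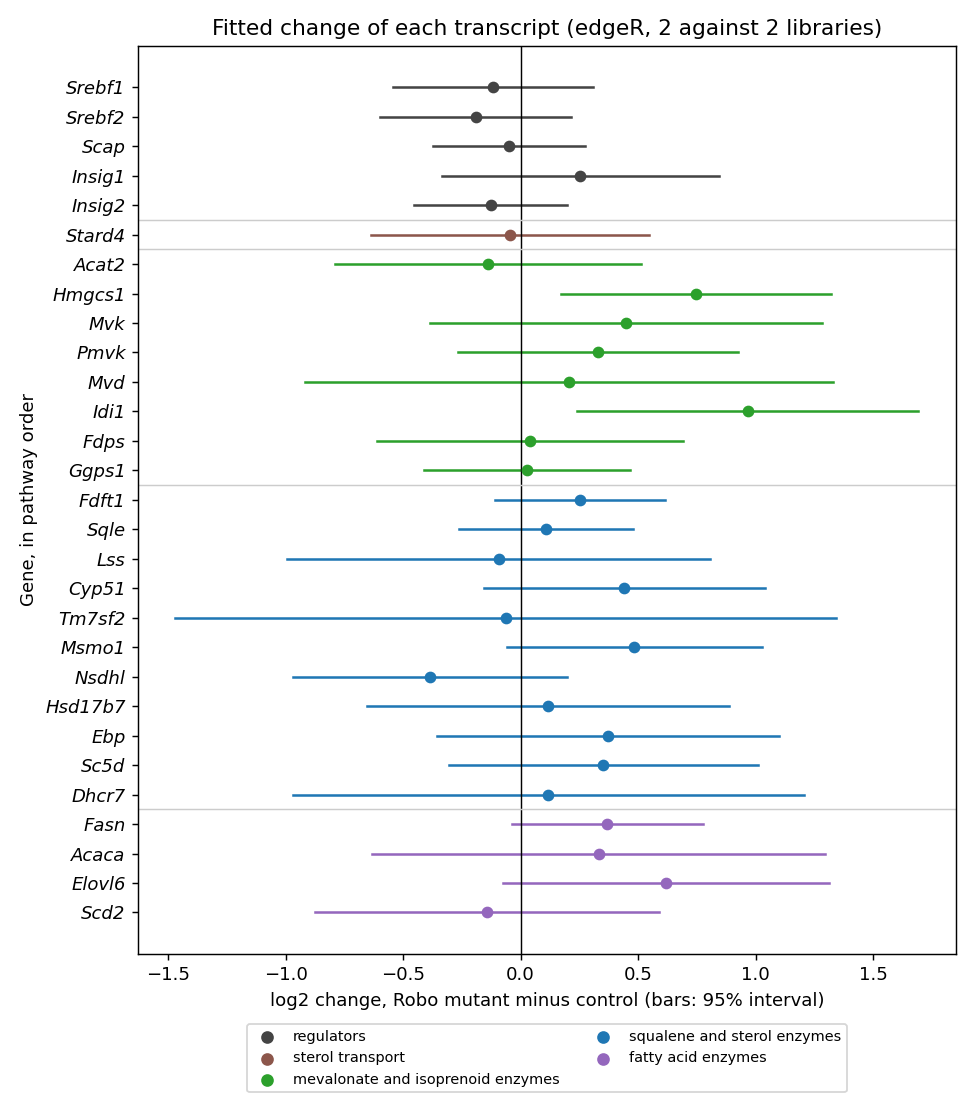
Fitted log2 change, Robo mutant minus control (horizontal axis), for 29 members in pathway order (vertical axis), with 95% intervals as bars and colours for roles. The intervals of Hmgcs1 and Idi1 lie above 0 before adjustment for the number of genes, and the intervals of the other 27 include 0.

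Fatty acid enzymes gave 3 of 5 higher. Fasn, fatty acid synthase, stood at 84.9 and 86.7 CPM in the controls and at 99.4 and 122 CPM in the mutant libraries, which did not overlap with them (log2 change 0.37, SE 0.15, unadjusted p = 0.0663 in edgeR). Elovl6, which lengthens palmitate, stood at 14.3 and 17.6 against 21.1 and 27.9 CPM, 1.54-fold higher (log2 change 0.62, SE 0.26), with an unadjusted p of 0.0691 by edgeR's quasi-likelihood test. In both genes mutant 2 was the higher, as in Hmgcs1. Acaca, acetyl-CoA carboxylase, stood at 8.94 and 7.68 CPM against 12.5 and 8.37 CPM (0.33, SE 0.36), and a processed pseudogene, Gm5182, matches it at 99.2% identity with 28 to 43 counts.

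The desaturase genes Scd1 and Scd2 were far apart in level. Scd2 stood at 249 and 270 CPM in the controls, 294 in mutant 1 and 177 in mutant 2, a further split between the mutant libraries (log2 change -0.14, SE 0.28). Scd1, the main form of liver and fat, had 31, 0, 1 and 17 counts in control 1, control 2, mutant 1 and mutant 2, and a count of 0 allows up to 3. No fold is given for Scd1, and its fitted change turned from -0.72 to 1.26 under quantile normalization.

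**Figure D3:**
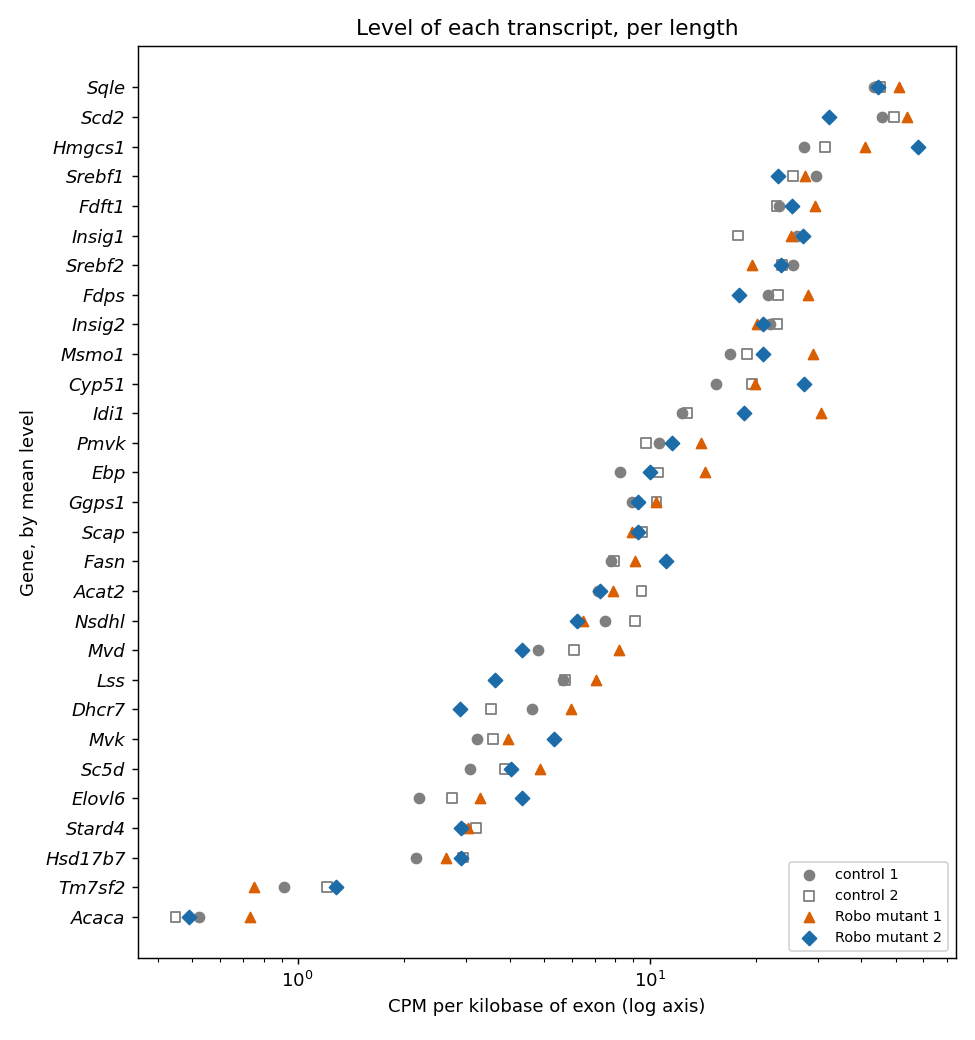
Level of 29 members in CPM per kilobase of annotated exon (horizontal log axis), ordered by their mean over the 4 libraries. Sqle, Scd2 and Hmgcs1 are at the top and Tm7sf2 and Acaca at the bottom, and differences between genes are far larger than those between genotypes.

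Per kilobase of exon, the most abundant members were Sqle (mean 46.0 CPM per kilobase), Scd2 (45.3) and Hmgcs1 (39.5), followed by Srebf1 (26.5) and Fdft1 (25.3). Sqle and Scd2 could not be ordered, since Scd2 was above Sqle in 3 libraries and below it in Robo mutant 2. The lowest were Scd1 (0.0532), Acaca (0.549), Tm7sf2 (1.04) and Hsd17b7 (2.67). Among the enzymes, Hmgcs1 was at 27.5 and 31.5 CPM per kilobase in the controls and at 40.9 and 58.0 in the mutant libraries, where it exceeded Sqle (51.1 and 44.5) in mutant 2.

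The 2 mutant libraries did not place the members alike. Robo mutant 1 lay above both controls in 18 members and below both in 5, and the shares over all genes tested were 35.8% and 40.4%. Robo mutant 2 lay above both controls in 12 members and below both in 11, near the shares over all genes tested (36.5% and 42%). Above in both were the 10 members listed earlier. In mutant 1 but not in mutant 2, a further 8 lay above both controls (Mvd, Fdps, Sqle, Lss, Ebp, Dhcr7, Acaca and Scd2), and in mutant 2 but not in mutant 1 a further 2 did (Insig1 and Tm7sf2). In 6 members 1 mutant library was above both controls and the other below both: Mvd, Fdps, Lss, Dhcr7, Scd2 and Tm7sf2. Such a split was seen in 25.9% of all genes tested, so it was no more frequent among the members. Within the squalene and sterol steps 8 of 11 transcripts were higher in mutant 1 than in mutant 2, whereas the regulators were higher in mutant 2 in 4 of 5. Set against the control mean, the 30 members had a median log2 difference of 0.21 in mutant 1 and 0.052 in mutant 2, with -0.054 and 0.056 in the controls.

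**Figure D4:**
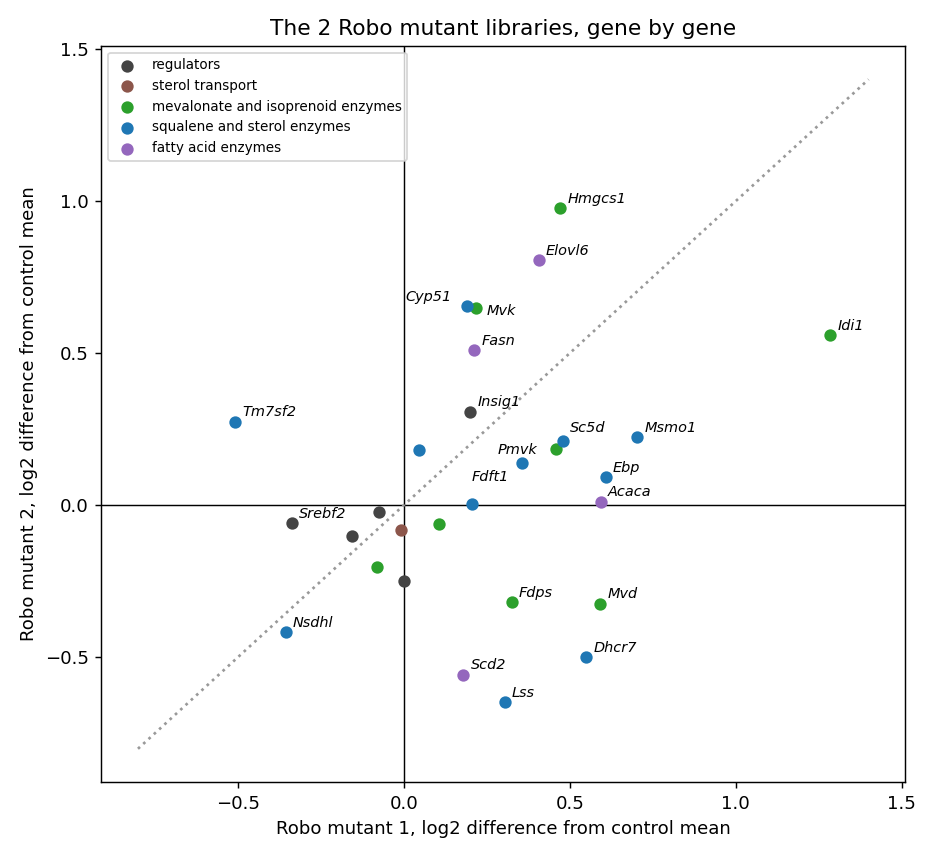
Log2 difference from the control mean in Robo mutant 1 (horizontal axis) and Robo mutant 2 (vertical axis) for 29 members, coloured by role, with a dotted line of equality. Hmgcs1, Elovl6 and Idi1 lie towards the upper right, while Mvd, Fdps, Dhcr7, Lss and Scd2 lie at the lower right, higher in mutant 1 and lower in mutant 2.

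Robo mutant 2 is the library with the most acinar transcripts. Without it the median log2 change of the members was 0.21, and 22 of 29 were above 0, against 47.7% of all genes tested. In that comparison 18 members had the remaining mutant library above both controls, as did 5790 of 15923 genes tested (36.4%). Without Robo mutant 1 the median was 0.053 and 17 of 30 were above 0, against 47.3% of all genes tested. Hmgcs1, Idi1, Msmo1, Cyp51, Fasn and Elovl6 are among the members with both mutant libraries above both controls. Their log2 changes therefore had to stay above 0 without each library in turn, so only their size is informative. The lowest was 0.47 for Hmgcs1, 0.22 for Msmo1, 0.19 for Cyp51, 0.21 for Fasn and 0.41 for Elovl6. Transcripts of the mitochondrial genome, summed over 13 genes, stood at 7997 and 7340 CPM in the controls and at 10842 and 8244 CPM in the mutant libraries, so this measure was highest in mutant 1 too. The part of acinar, delta marker or mitochondrial transcripts in the differences of mutant 1 and mutant 2 was not tested.

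Further genes of sterol synthesis and SREBP processing showed no shared direction. Of 15 tested genes of sterol synthesis, SREBP processing and branch pathways, 8 were higher and 7 lower (median log2 change 0.0052), and 0 had an unadjusted p under 0.05 in edgeR. Small p-values among these genes belonged to Syvn1 (log2 change -0.36), Rnf139 (0.29) and Pdss2 (0.54), none under 0.05. Syvn1 and Rnf139 encode ubiquitin ligases of the endoplasmic reticulum, and 22.3% of the exon bases of Rnf139 are shared with Tatdn1.

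Of 16 genes of cholesterol uptake, trafficking and storage, 11 were higher and 5 lower (median 0.13), with 0 at an unadjusted p under 0.05 in edgeR. The smallest p-values belonged to Stard3 (log2 change -0.55), Stard5 (0.27), Lrp8 (0.89) and Gramd1c (0.31). Of the 9 listed genes of the oxysterol receptors (LXR) and cholesterol efflux, 7 were tested, and 6 of them were higher (median 0.41), again with 0 at an unadjusted p under 0.05 in edgeR. Abcg1, which exports sterols, stood at 28.0 and 25.7 CPM against 32.9 and 40.6 CPM (0.45, SE 0.19). Its relatives Abca1 (0.42) and Abcg4 (0.91) and the receptor gene Nr1h3 (0.41) followed. In Abca1 the high library was mutant 2, at 275 CPM against 156 to 167 CPM in the other libraries.

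Of 24 tested genes of further fatty acid and triglyceride synthesis, 12 were higher and 12 lower (median -0.0063). An unadjusted p under 0.05 in edgeR was found for 2, both higher, against 6.21% of all genes tested (1.99% on the higher side). Me1, malic enzyme, which supplies NADPH for fatty acid synthesis, stood at 22.3 and 21.9 CPM in the controls and at 34.2 and 33.9 CPM in the mutant libraries, with the libraries of each genotype close together. Its log2 change was 0.62 (SE 0.17, unadjusted p = 0.0165, adjusted p = 0.680 in edgeR). Mid1ip1, an activator of acetyl-CoA carboxylase, stood at 107 and 104 against 127 and 147 CPM (0.38, SE 0.13, unadjusted p = 0.0414 in edgeR), and 25.5% of its exon bases are shared with an antisense gene. Acsl3 (0.45) and Elovl1 (-0.46) came next. Acly, which makes cytosolic acetyl-CoA for both pathways, was the most abundant gene of this list, at 4846 and 5070 CPM in the controls and 3853 and 4476 CPM in the mutant libraries (-0.25, interval -0.63 to 0.13).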

How the data were processed

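RNA of sorted β cells was measured in 4 libraries made with the SMART-Seq v4 and Nextera XT kits, per the labels' protocols. The submitters' processing notes name bcl2fastq 2.20.0.422, STAR 2.5.3a, RSEM 1.3.0, edgeR 3.16.5 and build GRCm38, and the annotation release is not given in the sources used here. Estimated counts per gene, in whole numbers, were deposited by the authors. Their table is called normalized although its totals differ, and whether they were rescaled earlier is not known. Columns of other samples numbered 0.

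Here, the 16517 genes that reached 10 counts in 2 or more libraries were fitted with edgeR 4.0.16 (TMM, glmQLFit, glmQLFTest, two-sided) in R 4.3.3, with Benjamini-Hochberg adjustment over all of them and a threshold of 0.05. The procedure was also run on counts simulated from the means and dispersions of this fit, and that outcome is not reported here. A standard error is the log2 change over the square root of F. DESeq2 1.42.0, limma 3.58.1 with quantile normalization, other scalings and filters, and each library left out were alternatives. Positions and exon lengths came from GENCODE M21, near copies from BLAST 2.17.0 (95% identity over at least 300 bases) and promoters from RefSeq.

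Members, gene lists and marker lists were chosen with earlier results of these data known. All members are named, with up to 4 genes of smallest p from each further list plus Acly, and the most abundant gene of each marker list. Some further genes that this rule names are not reported here.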

Additional observations from a re-analysis of the deposited data

How the results depend on the processing

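With edgeR 0 genes were called, whereas DESeq2 called 151. Leaving out each library in turn gave 0 to 1 called genes, the 1 call without Robo mutant 2, and 12 to 18 members with the remaining mutant libraries above the remaining controls. With fewer libraries the share over all genes tested was also higher, at 26.8% to 37.0%. The 10 alternatives gave 278 of 297 member values the same sign and side of the threshold as the full comparison, and 18 of 30 members kept their sign in every alternative that gave a value. Scaled by totals alone, the log2 changes of Fdps and Ggps1 were -0.012 and -0.033, and under quantile normalization that of Scd1 was 1.26. The causes were not tested. Across the libraries left out in turn, log2 changes crossed 0 for Srebf1 (-0.25 to 0.0036), Stard4 (-0.11 to 0.025), Acat2 (-0.33 to 0.083), Mvd (-0.32 to 0.59), Fdps (-0.32 to 0.33), Ggps1 (-0.085 to 0.15), Lss (-0.65 to 0.31), Tm7sf2 (-0.50 to 0.28), Hsd17b7 (-0.090 to 0.36), Dhcr7 (-0.50 to 0.55), Scd1 (-1.70 to 0.19) and Scd2 (-0.56 to 0.18). No paired analysis was possible because the labels give no replicate numbers and those used here follow accession order. With 2 libraries a genotype, a lone library left in a genotype is assumed to vary like the other, and Scd1 and other genes near 0 counts cannot be compared at this depth.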

Other observations

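A few genes of lipid uptake, fatty acid and triglyceride synthesis outside the members varied widely between libraries. They were chosen after their values were seen. Lrp8, a lipoprotein receptor gene, stood at 58.5 CPM in Robo mutant 2 and at 17.6 to 23.1 CPM in the other libraries. Acacb, the mitochondrial form of acetyl-CoA carboxylase, had 173 counts in Robo mutant 2, 21 in control 2 and 0 in control 1 and Robo mutant 1. Apoe, which carries lipid between cells, stood at 48.3 and 29.1 CPM in the controls, 66.1 in Robo mutant 1 and 18.5 in Robo mutant 2. Dgat2, which makes triglyceride, stood at 8.75 and 3.46 CPM in the controls and at 15.1 and 9.39 CPM in the mutant libraries, the low library being control 2. Acss2, which makes acetyl-CoA from acetate, stood at 9.76 CPM in Robo mutant 1 and at 21.4 to 25.0 CPM in the other libraries.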
